A study of Mus musculus with 36 samples.

Results

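The adult muscle of GSG, a mouse strain with a sarcoglycan-deficient muscular dystrophy, was set against the muscle of juvenile animals of the same strain. All 18 arrays of the GSG strain, out of 36 arrays of 2 strains, were taken. BSG mice, whose 18 arrays serve here for comparison, are the other sarcoglycan-deficient strain and lack beta-sarcoglycan. RNA came from the quadriceps at 9 ages (1, 2.5 and 4 weeks, every 2 weeks from 6 to 14, and 20 weeks), from 2 mice per age and strain. Healthy muscle is not analysed here, so that ageing of healthy muscle and the dystrophy cannot be told apart in any value below. In each strain the mice form 2 closed loops of 9 arrays. Every array compares 1 age, labelled with Cy5, with the age before it, labelled with Cy3, and the last array of a loop compares the mouse of 1 week with that of 20 weeks. A loop therefore holds 1 mouse per age, and each mouse lies on 2 arrays. The contrast described is the mean of 6, 8, 10, 12 and 14 weeks minus 2.5 weeks, called adult minus 2.5 weeks, on the log2 scale, from a least squares fit of the 8 later ages relative to 1 week. The start at 2.5 weeks leaves out the fall of genes of newborn muscle before that age. Any later fall stays in the contrast: relative to 2.5 weeks, Dlk1 stood at 1.18 at 1 week and at -1.58 in adults.

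Sarcoglycans are transmembrane proteins of the muscle fibre that sit, with dystroglycan, sarcospan and the dystrobrevins, in the dystrophin-associated complex, which ties the actin cytoskeleton to the basement membrane. Where the complex is disrupted the membrane tears during contraction, and fibres die and regenerate in repeated rounds, a disease known in people as a limb-girdle muscular dystrophy. Dying fibres draw in monocytes, which become macrophages that clear debris and signal to satellite cells and fibroblasts.

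The arrays carry 8129 different oligonucleotides, 6752 of them with 1 gene symbol, each spotted 2 times. The correlation of the 2 spots across oligonucleotides measures how far log ratios repeat, and can also be low where the 2 ages differ little. It ranged from 0.18 to 0.697 over the 18 GSG arrays (median 0.364 in loop 1 and 0.645 in loop 2) and was below 0.3 on 5 of them, 4 in loop 1 and 1 in loop 2. Both arrays of 4 over 2.5 weeks, which carry the direct step out of 2.5 weeks, were among these 5, with 0.2 in loop 1 and 0.236 in loop 2. Dual-channel ratios give no level, so the tissue could not be checked against its markers. Sgca differed by -0.22 ± 0.55 (SE), Sgcb by -0.41 ± 0.33 and Sgcd by -0.33 ± 0.49 between adult and 2.5 weeks, and none of them passed the test. Sgcb was below 2.5 weeks in all 10 adult mice. In whole muscle, fewer cells of a type and less RNA per cell cannot be told apart. Littermates were used for most ages, so age, litter and the hour of sacrifice are bound together. The 17 measured clock genes had a median of -0.03, with Dbp at 0.97 ± 0.32 and Cry1 at -0.79 ± 0.31, and the part of the hour in other values was not tested.

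A log ratio has a component that is the same on every array of a loop, since all arrays run the same way round. Age cancels in the mean of the 9 arrays of a closed loop. That mean nevertheless correlated between the loops at 0.602 for both GSG loops and at 0.456 to 0.828 for the other pairs of the 4 loops of both strains (8129 oligonucleotides, arrays of the same design and dye orientation). For Cd74 it was 0.25 and 0.23 in the GSG loops and 0.25 and 0.35 in the BSG loops. Such a constant part drops out of every contrast fitted on closed loops. It does not drop out once the same array is taken from both loops.

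The direction of the ratios, Cy5 over Cy3, is likely and rests on the dye labels and on the design. With it the genes of newborn muscle go down after the first week.

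Among the genes furthest above 2.5 weeks in adult muscle were several of macrophages and of the chemokines that attract them. None of them passed the test described below, and the measured chemokines and cytokines as a group had a median of only 0.10. The inflammation list of the study has 11 genes, 1 of them a lysozyme given by an older symbol, which enters here by both paralogs, Lyz1 and Lyz2. These 12 genes had a median of 1.88 (1.89 without Lyz2 and 1.86 without Lyz1), against -0.04 over all 8129 oligonucleotides. Their median was 1.93 in loop 1 and 1.71 in loop 2. Of these, 11 were above the 2.5-week mouse in all 10 adult mice. Across all oligonucleotides 460 (5.66%) lay above it in all 10 adult mice and 745 (9.16%) lay below it in all 10, where the 5 adult values of a loop share their 2.5-week mouse. These genes were picked by the study on profiles that include these arrays, so the list is not independent evidence of its direction.

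No oligonucleotide passed the array fit. Limma called 0 of 8129 oligonucleotides (0%) at an adjusted p under 0.05. The smallest adjusted p was 0.0534, and 337 oligonucleotides (160 higher and 177 lower) had an unadjusted p under 0.05, 4.15% of those tested. A fit with 1 value per animal and the loop as a block called 37 higher (0.455%) and 23 lower (0.283%). All 60 had the same sign in both loops, which a call on both loops together favours. That fit takes the mice of a loop as independent, although neighbours in age share an array, and on simulated data it called more unchanged oligonucleotides than its threshold allows. Its adjusted p is therefore given below as a second value beside that of the array fit, never in its place.

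Across all oligonucleotides the contrast of loop 1 and that of loop 2 correlated at 0.181, and 4145 of 8129 (51%) had the same sign in both. The spread across oligonucleotides was 0.488 in loop 1 and 0.376 in loop 2. Most genes named below had the same sign in both. Many of them were chosen by p over both loops together or after their values were seen, which favours such agreement.

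**Figure D1:**
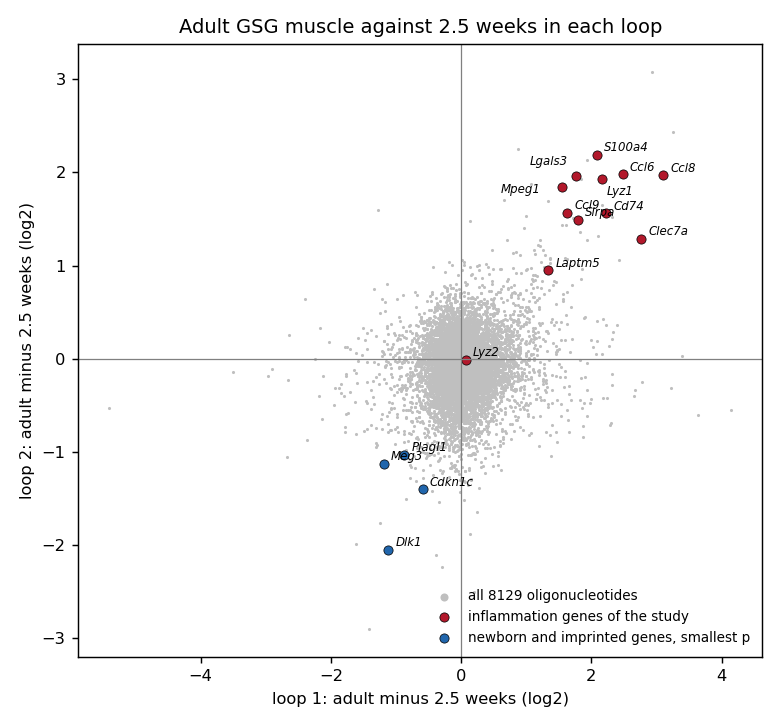
Adult minus 2.5 weeks (log2) in loop 1 (x axis) against loop 2 (y axis); each grey point is 1 of 8129 oligonucleotides, red points are the 12 inflammation genes and blue points the 4 genes with the smallest p among newborn muscle and imprinted genes. Except for Lyz2, near 0 on both axes, the red points lie in the upper right and the blue points in the lower left. The blue genes were chosen by their p in this contrast, and the red ones by the study on profiles that include these arrays. Agreement of the coloured points between the loops is therefore favoured by the choice of genes. The grey cloud has a correlation of 0.181.

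Promoters are shown for 3 of the genes that lead the immune group, and for Dlk1, the gene with the smallest p among the lower ones. Each runs from 250 bases before to 50 after the start site (RefSeq, GRCm38.p6, 5′ to 3′ along the gene). Capitals mark GAGGAA, the core bound by PU.1, the transcription factor that makes myeloid cells, on either strand, and TGANTCA, the AP-1 site. Ccl8 lies at chr11:82114935-82115234 on the plus strand, Ccl6 at chr11:83593038-83593337 on the minus strand, Clec7a at chr6:129472730-129473029 on the minus strand and Dlk1 at chr12:109452573-109452872 on the plus strand.
Ccl8: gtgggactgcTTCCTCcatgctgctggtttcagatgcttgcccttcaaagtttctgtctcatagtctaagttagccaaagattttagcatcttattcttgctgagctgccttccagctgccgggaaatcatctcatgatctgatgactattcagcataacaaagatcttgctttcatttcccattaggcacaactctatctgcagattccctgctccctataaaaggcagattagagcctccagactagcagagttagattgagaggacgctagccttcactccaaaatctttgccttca
Ccl6: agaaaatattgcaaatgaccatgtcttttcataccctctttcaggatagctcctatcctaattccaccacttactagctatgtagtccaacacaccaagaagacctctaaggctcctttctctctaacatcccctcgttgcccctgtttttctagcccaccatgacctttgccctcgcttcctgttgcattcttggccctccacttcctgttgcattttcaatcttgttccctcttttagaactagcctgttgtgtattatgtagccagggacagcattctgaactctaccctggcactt
Clec7a: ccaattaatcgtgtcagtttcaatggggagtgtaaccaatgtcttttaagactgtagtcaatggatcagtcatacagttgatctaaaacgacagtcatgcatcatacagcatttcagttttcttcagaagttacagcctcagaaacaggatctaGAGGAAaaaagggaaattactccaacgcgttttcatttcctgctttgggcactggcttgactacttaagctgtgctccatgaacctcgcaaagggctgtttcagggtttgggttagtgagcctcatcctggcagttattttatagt
Dlk1: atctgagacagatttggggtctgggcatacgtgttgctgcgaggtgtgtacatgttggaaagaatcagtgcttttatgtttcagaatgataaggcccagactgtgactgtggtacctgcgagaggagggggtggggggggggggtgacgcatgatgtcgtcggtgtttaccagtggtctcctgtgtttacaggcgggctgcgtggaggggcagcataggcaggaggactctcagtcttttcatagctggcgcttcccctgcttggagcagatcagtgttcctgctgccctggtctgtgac
GAGGAA starts 96 bases before the start site in Clec7a, and on the opposite strand 240 bases before it in Ccl8. Neither motif is in these windows of Ccl6 and Dlk1. GAGGAA is in 28.1% of the promoters of 5168 genes on the arrays, in 4 of 10 promoters of the inflammation genes (40%) and in 15 of 29 promoters of the macrophage genes (51.7%). TGANTCA is in 6.85% of all those promoters, in 1 of 10 and in 6 of 29 (20.7%). A match describes the letters and is no binding site. Spi1, which encodes PU.1, stood at 0.12 ± 0.31.

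Chemokines of the CC family were among the genes furthest above 2.5 weeks, and Ccl8 and Ccl6 lay highest of all genes with a symbol. Ccl8, a ligand for monocytes and T cells, lay between 1.20 and 3.34 in the 10 adult mice (median 2.72). All 5 adult mice of loop 1 were at 2.88 or above and all 5 of loop 2 at 2.55 or below, so the loops did not overlap. The adult mean was 2.54 ± 0.44 above 2.5 weeks, 5.81-fold (limma adjusted p = 0.117; 1 value per animal, adjusted p = 0.0266).

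Ccl6 lay between 1.40 and 3.26 (median 2.29), with the loops overlapping, and its mean was 2.23 ± 0.58 (adjusted p = 0.801; 0.0266 with 1 value per animal, both limma). Ccl9, a related ligand for myeloid cells, lay between 0.88 and 2.32, with a mean of 1.60 ± 0.55. Ccl2, the main attractant of inflammatory monocytes, had the widest spread of these, from 0.29 to 3.39. Its mean was 2.03 ± 0.77, at 1.94 in loop 1 and 2.13 in loop 2, and Ccl7, which acts on the same receptor and was named after its values were seen, stood at 1.51 ± 0.58. All 10 adult mice were above their 2.5-week mouse for each of the 5.

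Of the 43 measured chemokines and cytokines, 10 (23.3%) were above in all 10 adult mice and 4 (9.3%) below, and the median was 0.10. With 1 value per animal 5 of the 43 were called higher. Tnf, the macrophage cytokine that drives NF-kB, stood at 0.65 ± 0.27, and Il1b, of inflamed macrophages, at -0.15 ± 0.24. Ccr2, the receptor for Ccl2 and Ccl7 on monocytes, was at -0.32 ± 0.17 and below 2.5 weeks in all 10 adult mice, but at 0.76 without the arrays of 4 over 2.5 weeks and with a dye term. Cx3cr1, the fractalkine receptor, was at -0.26 ± 0.24. Tnf, Il1b, Ccr2 and Cx3cr1 were chosen after their values were seen.

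Macrophage markers covered much the same range of sizes as the chemokines. Clec7a encodes dectin-1, a lectin of macrophages and dendritic cells. It lay between 0.84 and 3.92 in the adult mice (median 2.11), with the highest value in the 14-week mouse of loop 1. Every adult mouse of loop 1, from 2.27 upwards, was above every adult mouse of loop 2, whose highest value was 1.94. The mean was 2.03 ± 0.43, 4.09-fold (limma adjusted p = 0.467; 0.0266 with 1 value per animal).

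Adgre1, which encodes the macrophage antigen F4/80, lay between 0.59 and 3.20 with a mean of 1.92 ± 0.58 (limma adjusted p = 0.999; 0.0327 with 1 value per animal). Its lowest value was the 12-week mouse of loop 2 and its highest the 8-week mouse of loop 1. Mpeg1, which encodes the pore-forming perforin-2 of macrophages, was at 1.70 ± 0.61 and Cd52, a surface glycoprotein of leukocytes, at 1.52 ± 0.42. Aif1, a calcium-binding protein of macrophages, was at 1.14 ± 0.36. For each of these 4 genes all 10 adult mice were above 2.5 weeks.

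Lgals3, galectin-3, lay between 0.99 and 3.08 with a mean of 1.86 ± 0.80. Sirpa, the inhibitory receptor that reads CD47, stood at 1.64 ± 0.68, and Laptm5, a lysosomal membrane protein of blood cells, at 1.15 ± 0.44. Laptm5 was not kept without the 5 weakest arrays, where it came to -0.03 with a dye term. Lyz1, the P lysozyme, lay between 1.11 and 3.27 with a mean of 2.05 ± 0.66, 4.13-fold. The oligonucleotide of its paralog Lyz2 lay between -0.34 and 0.23, with 6 of 10 adult mice above 2.5 weeks. These 2 genes are close in sequence, and the files do not show whether both oligonucleotides can tell them apart.

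In all, 21 of the 40 measured genes of macrophages and monocytes (52.5%) were above 2.5 weeks in all 10 adult mice and 1 (2.5%) below, with a median of 0.66 (0.65 in loop 1 and 0.73 in loop 2). With 1 value per animal 7 of the 40 were called higher and 0 lower. Among the members above in every adult mouse, and chosen after their values were seen, were Trem2, the lipid receptor of macrophages (1.56 ± 0.59), its adaptor Tyrobp (1.20 ± 0.45), Clec4a2 (1.60 ± 0.55), Cd68 (1.12 ± 0.54) and Gpnmb (1.26 ± 0.64). Trem2 was uneven, at 0.88 in loop 1 and 2.25 in loop 2. The mean of the 40 genes per mouse ranged from 0.41 to 1.16 over the 10 adult mice, with no mouse at or below its 2.5-week partner.

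The list means of other blood lineages lay near 0. The mean of 18 genes of T, B and NK cells ranged from -0.11 to 0.06 over the 10 adult mice, and 1 of the 18 (5.56%) was above 2.5 weeks in all 10 and 1 below. For 18 genes of neutrophils, eosinophils and mast cells the range was -0.12 to 0.09. Cd8a, of cytotoxic T cells, stood at -0.31 ± 0.24, Gzma, of their granules, at 0.36 ± 0.26, and S100a8, of neutrophils, at 0.74 ± 0.37. Ccr3, the eotaxin receptor of eosinophils, had the smallest p of the granulocyte list and stood at -1.05 ± 0.45 (limma adjusted p = 0.999), with -1.84 in loop 1 and -0.27 in loop 2. Ltf, the lactoferrin of neutrophil granules, was below in all 10 adult mice (-0.26 ± 0.17). For 19 erythroid genes the range was -0.15 to 0.07, and for 19 genes of skin and epithelium -0.11 to 0.00. These values give the difference between ages and say nothing of whether a cell type was there.

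**Figure D2:**
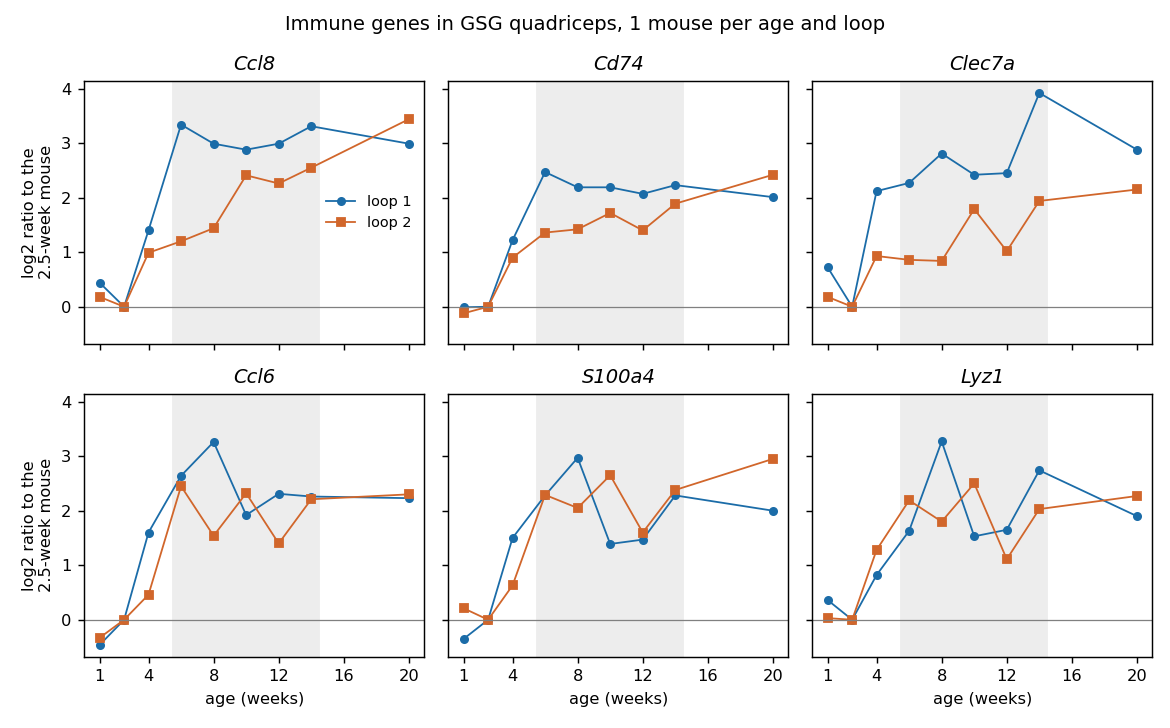
Log2 ratio of each mouse to the 2.5-week mouse of its own loop (y axis) by age in weeks (x axis) for 6 immune genes; circles are loop 1, squares loop 2, 1 mouse per point, and grey shading spans the adult ages. In both loops every adult point is above 0, and the points of 1 week lie between -0.46 and 0.72.

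Genes of antigen presentation were led by Cd74, the invariant chain that guides class II molecules. It lay between 1.36 and 2.47 in the adult mice (median 1.98). All 5 adult mice of loop 1 were at 2.07 or above and all 5 of loop 2 at 1.89 or below. The mean was 1.89 ± 0.34, 3.72-fold (limma adjusted p = 0.149), and Cd74 had the smallest adjusted p of any named gene with 1 value per animal (limma, 0.00757). With a constant dye term in the array fit its adjusted p was 0.02.

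B2m, the light chain of class I molecules, stood at 1.74 ± 0.50, with 2.42 in loop 1 and 1.06 in loop 2. Ctss, the protease that trims the invariant chain, was at 1.19 ± 0.55, and Psmb10, a subunit of the immunoproteasome, at 0.45 ± 0.20. Of 11 measured genes of the group 6 (54.5%) were above in all 10 adult mice and 0 below, with a median of 0.41. Its single call with 1 value per animal was Cd74.

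Retnla, a marker of alternatively activated macrophages, was at 1.12 ± 0.33 (limma adjusted p = 0.909), from 0.15 to 2.04 over the adult mice. Complement was divided within a single complex: C1qa stood at 1.35 ± 0.53 and C1qc at 1.02 ± 0.44, while C1qb, chosen after its value was seen, was at -0.22 ± 0.19. Clu, clusterin, a chaperone of extracellular proteins, was at 0.92 in both loops (0.92 ± 0.33; limma adjusted p = 0.999, and 0.0266 with 1 value per animal). Of 21 complement genes 5 (23.8%) were above in all 10 adult mice and 2 (9.52%) below. Among 23 interferon response genes 4 (17.4%) were above and 0 below, with a median of 0.16. Oas1a, an interferon-induced synthetase that activates RNase L, had the largest difference (1.04 ± 0.55, above in all 10), and Tgtp1, an interferon-induced GTPase, stood at 0.88 ± 0.30 and above in 9 of 10.

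Lysosomal genes lay mostly above 2.5 weeks, and genes of the actin cytoskeleton were divided. Of 37 lysosomal genes 14 (37.8%) were above 2.5 weeks in all 10 adult mice and 0 below, with a median of 0.47 in loop 1 and 0.15 in loop 2. Cstb, an inhibitor of cathepsins, stood at 1.34 ± 0.50, Ctsc, the protease that activates granule enzymes, at 1.13 ± 0.45 and Lamp1, a glycoprotein of the lysosome's wall, at 0.67 ± 0.29. Of 41 genes of the actin cytoskeleton and membrane repair 11 (26.8%) were above and 5 (12.2%) below.

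S100a4, a calcium-binding protein of macrophages and fibroblasts, led that group. It lay between 1.39 and 2.97 (median 2.28), with loop means of 2.08 and 2.19. The mean was 2.14 ± 0.60, 4.4-fold (limma adjusted p = 0.861; 0.0266 with 1 value per animal). S100a6 was at 1.23 ± 0.50, S100a13 at 1.10 ± 0.34 and Anxa4, an annexin that binds membranes in the presence of calcium, at 1.02 ± 0.41. Itgb1, an integrin chain of the fibre, was at -0.50 ± 0.24.

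Of 36 genes of oxidative stress 6 (16.7%) were above in all 10 adult mice and 0 below. Mgst1, a membrane-bound glutathione transferase, stood at 1.41 ± 0.50, Sod3, the extracellular superoxide dismutase, at 1.13 ± 0.46 and Hmox1, which breaks down haem, at 0.68 ± 0.34. The median of the group was 0.50 in loop 1 and 0.04 in loop 2.

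Extracellular matrix genes had no common direction. The 27 genes of fibrillar collagens had a median of -0.09, with 1 (3.7%) above and 4 (14.8%) below in all 10 adult mice. Col5a1 stood at -0.91 ± 0.42, Col11a1 at -0.85 ± 0.33 and Bmp1, the protease that matures procollagen, at -0.78 ± 0.22. Col3a1, chosen after its value was seen, was at 0.89 ± 0.43. Timp1, an inhibitor of metalloproteinases, was at 1.21 in each loop (1.21 ± 0.52). Thbs4, which helps to hold the fibre's attachment to its matrix, was at 0.77 ± 0.28 and Mgp, which keeps soft tissue from calcifying, at 0.69 ± 0.29, while Thbs3 was at -0.63 ± 0.22. These 3 had adjusted p-values of 0.0415, 0.0471 and 0.0415 in limma with 1 value per animal. The 21 basement membrane genes had a median of -0.28, with 0 above and 6 (28.6%) below in all 10, among them Lamb3 (-0.47 ± 0.16).

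Among the lower genes Dlk1 had the smallest p, and it is described with the other imprinted and newborn genes. By size alone, Pax5 (-2.96 ± 1.05, but -5.40 in loop 1 and -0.53 in loop 2), Kat6b (-1.86 ± 0.54) and Kcne1l lay further below 2.5 weeks, as did Fh1, the fumarase of the citric acid cycle (-1.62 ± 0.55). Col4a6, a basement membrane collagen, was at -1.57 ± 0.58, with -2.97 in loop 1 and -0.18 in loop 2. Pax5 and Kat6b were chosen after their values were seen. Dlk1, an imprinted Notch-like ligand of fetal muscle, lay between -2.65 and -0.59 in the 10 adult mice. In loop 1 it was -0.59 at 4 and 6 weeks, -0.86 at 8, -1.05 at 10, -1.50 at 12 and -1.60 at 14 weeks. In loop 2 it was -0.40 at 4 weeks, -1.12 at 6, -1.71 at 8, -2.29 at 10, -2.47 at 12 and -2.65 at 14 weeks. Both loops thus went lower from each age to the next between 6 and 14 weeks. The mean was -1.58 ± 0.26 (limma adjusted p = 0.0905; 0.0266 with 1 value per animal).

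Meg3, the maternally expressed RNA of the same imprinted locus, stood at -1.16 ± 0.36, close to the same in loop 1 (-1.19) and loop 2 (-1.13). H19, another imprinted RNA, was at -1.18 ± 0.50. Cdkn1c, an imprinted inhibitor of the cell cycle, lay between -1.56 and -0.38 (median -1.10), with -0.59 in loop 1 and -1.40 in loop 2. Plagl1, an imprinted zinc finger factor that regulates other imprinted genes, lay between -1.56 and -0.57 with a mean of -0.95 ± 0.31. All 10 adult mice were below 2.5 weeks for each of these 5 genes. Cdkn1c and Plagl1 had limma adjusted p-values of 0.999 in the array fit, and 0.0446 and 0.0415 with 1 value per animal.

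Of 27 measured newborn muscle and imprinted genes, 6 (22.2%) were below 2.5 weeks in all 10 adult mice and 2 (7.41%) above, with a median of -0.15. Loop 1 had a median of -0.08 and loop 2 of -0.43. At 1 week the group stood at a median of 0.34 above 2.5 weeks.

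The 8 measured GSG genes of the study were all at or under -0.11, with a median of -0.57, but loop 1 had a median of -0.06 and loop 2 of -1.02. The study chose them on these arrays, among others. Plagl1 is one of them, and Akap12, a scaffold for protein kinase A, lay between -1.26 and -0.33 in the adult mice with a mean of -0.79 ± 0.23 (limma adjusted p = 0.909; 0.0454 with 1 value per animal). Agtr2, the angiotensin receptor of fetal tissue, stood at -0.30 in loop 1 and -2.24 in loop 2 (-1.27 ± 0.64). Rpl22, a ribosomal protein, was at 0.05 and -1.52, and Postn, periostin, at 0.31 and -1.11, so for these 2 the loops had opposite signs. Matn2 was at -0.31 ± 0.38, Palmd at -0.31 ± 0.22 and Hmgb2 at -0.11 ± 0.44.

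Some lower genes belong to no list and were chosen after their values were seen. Kcne1l, a regulatory subunit of potassium channels, lay between -2.49 and -1.10 with a mean of -1.81 ± 0.49. Frzb, a secreted inhibitor of Wnt signalling, lay between -2.35 and -0.96. In loop 2 Frzb went from -0.50 at 4 weeks to -2.35 at 14 weeks, and in loop 1 from -0.21 to -1.57. Its mean was -1.50 ± 0.39. Both had a limma adjusted p of 0.801 in the array fit and 0.0266 with 1 value per animal. Gpc3, a proteoglycan that restrains fetal growth (-0.81 ± 0.22), Hoxa5 (-0.94 ± 0.28) and Lfng, which modifies Notch (-0.85 ± 0.27), were below in all 10 adult mice too. On the higher side, Hp and Nr1h3 were also chosen after their values were seen. Hp, haptoglobin, which binds free haemoglobin, lay between 0.47 and 2.54 with a mean of 1.71 ± 0.44. Nr1h3, the lipid sensor LXR-alpha of macrophages, was at 1.01 ± 0.30. The oligonucleotide with the smallest p of all has no gene symbol here: its highest adult value was 3.67 and its mean 2.84 ± 0.41 (limma adjusted p = 0.0534).

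**Figure D3:**
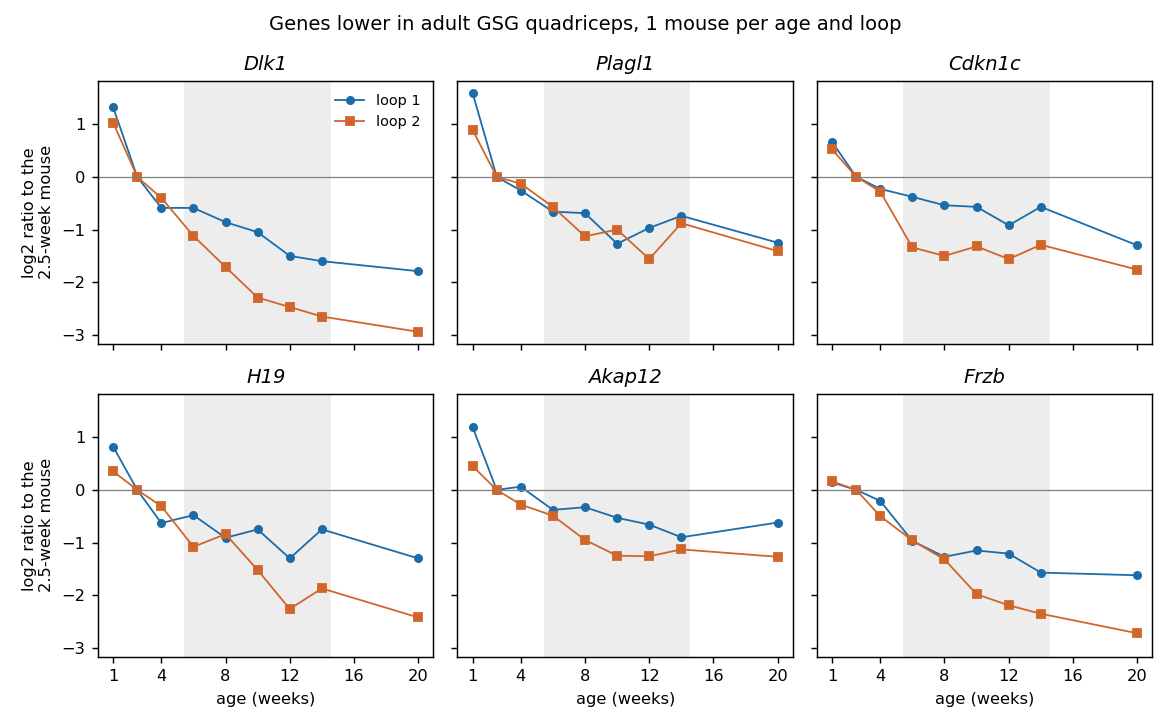
Log2 ratio of each mouse to the 2.5-week mouse of its own loop (y axis) by age in weeks (x axis) for 6 genes that were lower in adults; circles are loop 1, squares loop 2, and grey shading spans the adult ages. Every adult point is below 0, and Dlk1 is above 0 at 1 week in both loops, at 1.32 and 1.03.

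The contractile and metabolic genes of the fibre had different medians in the 2 loops. The 13 fast fibre genes had a median of 0.13 in loop 1 and -0.37 in loop 2, and the 12 slow fibre genes 0.08 and -0.56. The 39 glycolysis genes had 0.06 and -0.37, the 46 respiratory chain genes 0.05 and -0.46, the 24 fatty acid oxidation genes -0.04 and -0.35, and the 28 genes of calcium handling -0.05 and -0.47. Cytosolic ribosomal proteins were at 0.49 and -0.04, and the 20 genes of the dystrophin-associated complex at 0.04 and -0.44. The 5 adult mice of a loop share 1 mouse of 2.5 weeks, so a loop's own 2.5-week mouse enters all of them. Fbp2, the muscle fructose bisphosphatase, was below in all 10 adult mice, from -1.59 to -0.45 (-0.94 ± 0.35; limma adjusted p = 0.999, and 0.0388 with 1 value per animal). Actn3, the actinin of fast fibres, stood at -0.67 ± 0.43, and Mb, myoglobin, at 0.70 ± 0.37.

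Regeneration genes gave no common direction. The 36 measured genes had a median of -0.12, with 3 (8.33%) above and 4 (11.1%) below in all 10 adult mice, and the master factors of the myoblast are within that list. Fgfr4, a growth factor receptor of regenerating fibres, stood at -0.94 ± 0.35, and Dlk1 and H19, given above, are on this list too. The 55 genes of the cell cycle had a median of -0.07, 1 (1.82%) above and 3 (5.45%) below. Medians of the 36 TGF-beta family genes (-0.04), 34 endothelial genes (-0.13), 16 smooth muscle genes (-0.15), 23 Schwann cell genes (-0.11), 26 adipocyte genes (0.17), 37 chaperones (-0.03), 40 atrophy genes (0.04), 28 metalloproteinases and inhibitors (-0.01), 39 proteoglycan and elastic fibre genes (-0.11) and 9 genes of alternatively activated macrophages (0.38) lay between -0.15 and 0.38. Within these lists Rgs5, of pericytes, was at -0.84 ± 0.33, and Car3, a carbonic anhydrase of adipocytes and slow fibres, stood at 2.39 in loop 1 and 0.36 in loop 2.

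**Figure D4:**
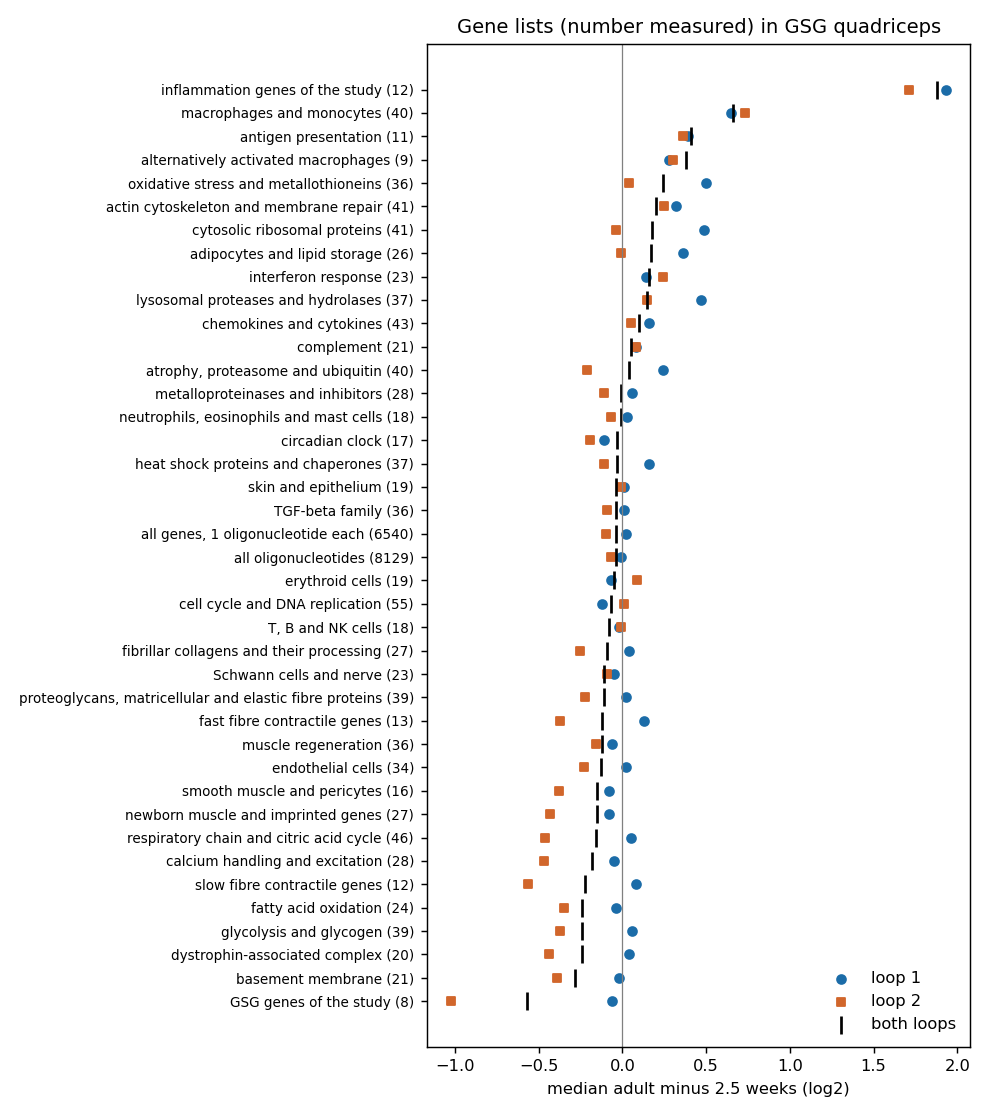
Median of adult minus 2.5 weeks (log2, x axis) for each gene list, with the number of measured genes in brackets; circles are loop 1, squares loop 2 and bars both loops together. The inflammation and macrophage lists lie above 0 in both loops, and most lists of fibre metabolism lie near 0 in loop 1 and below 0 in loop 2.

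The leading immune genes stood above 2.5 weeks from 4 weeks on. Cd74 was at 1.22 in loop 1 and 0.90 in loop 2 at 4 weeks, and Ccl8 at 1.40 and 0.99. Other immune genes were near 0 at that age, as Aif1 at 0.16 and 0.00 and Cd68 at -0.04 and -0.23. The values of 4 weeks rest mostly on the arrays of 4 over 2.5 weeks, with duplicate correlations of only 0.2 and 0.236. The mean of the 12 inflammation genes was 1.11 and 0.69 at 4 weeks and 1.86 and 1.67 at 6 weeks. At 8 weeks it was 2.48 in loop 1 and 1.37 in loop 2, and at 10 weeks 1.44 and 2.04, so the highest mouse was the 8-week mouse in one loop and the 10-week mouse in the other. The arrays of 10 over 8 weeks of both loops correlated at -0.293 across all oligonucleotides. At 12 weeks the mean was 1.58 and 1.09, at 14 weeks 2.22 and 1.64. At 1 week it was 0.11 and 0.05.

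At 20 weeks no oligonucleotide differed past the threshold from the adult mean. Limma called 0 of 8129 oligonucleotides (0%) between 20 weeks and 6 to 14 weeks, 86 had an unadjusted p under 0.05, and 1 value per animal called 0 as well. The inflammation genes had a median of 0.22 above the adult mean, and Ccl8 was 0.68 ± 0.40 above it. For Dlk1 the value was -0.78 ± 0.23. The median standard error of this contrast was 0.233.

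The same contrast in BSG mice gave the same signs for the leading genes. The 2 BSG loops, however, correlated at only 0.0504 in this contrast over all oligonucleotides, against 0.181 for the GSG loops. With both loops together, GSG and BSG correlated at 0.446. Single loops of different strains correlated at 0.0908 to 0.358. GSG loop 1 was thus closer to BSG loop 1 (0.358) than to the other loop of its own strain. On 2 arrays of BSG loop 1 the duplicate correlation was 0.0242 and -0.0961. In BSG, Ccl8 stood at 2.14 ± 0.48, Clec7a at 1.58 ± 0.52, Cd74 at 1.15 ± 0.41, Lyz1 at 1.79 ± 0.61 and Dlk1 at -1.04 ± 0.30. The inflammation genes had a median of 1.22 and the macrophage genes of 0.31 in BSG. The difference between the strains, tested in 1 fit of 36 arrays, called 0 of 8129 oligonucleotides (0%) in limma, with 103 at an unadjusted p under 0.05. For Ccl6 the difference was 1.27 (2.23 in GSG and 0.96 in BSG, limma adjusted p = 1) and for Frzb -1.17 (-1.50 and -0.33). For Meg3 it was -1.01, with -0.15 ± 0.42 in BSG. The median standard error of a strain difference was 0.365. Differences of that size could not be resolved, and larger ones, such as those of Ccl6 and Frzb, did not pass either.

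For the strain difference, 1 value per animal called 1 of 8129 oligonucleotides. Crygd, a crystallin of the eye lens, stood at 1.06 in loop 1 and 0.51 in loop 2 of GSG and at -0.63 and -0.30 in the loops of BSG. All 10 adult GSG mice were above their 2.5-week mouse, as was 1 of the 10 adult BSG mice. The difference was 1.24 (limma, 1 value per animal, adjusted p = 0.00965), and in the array fit its adjusted p was 1.

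**Figure D5:**
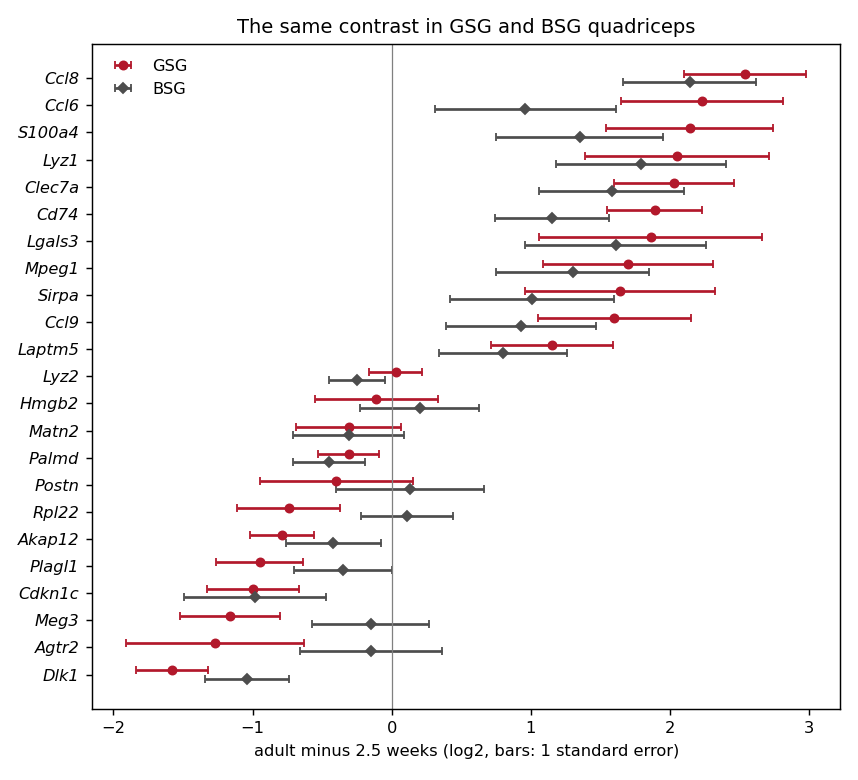
Adult minus 2.5 weeks (log2, x axis, bars 1 standard error) in GSG (circles) and BSG (diamonds) for the inflammation genes, the GSG genes of the study and the leading newborn and imprinted genes. Except for Lyz2 the inflammation genes lie above 0 in both strains, and Meg3 and Agtr2 lie lower in GSG than in BSG without a difference that passed the test.

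The immune genes were also read without the weakest arrays. Leaving out both arrays of 4 over 2.5 weeks opens both loops, and the part that is constant over the arrays of a loop then stays in the contrast: 607 oligonucleotides were called, 104 higher and 503 lower, and Cd74 came to 0.69, Ccl8 to 2.32, the median of the 12 inflammation genes to 0.75 and that of the macrophage genes to 0.41. Leaving out all 5 arrays with a duplicate correlation below 0.3 called 66, with 0.19 for Cd74, 1.74 for Ccl8, -1.81 for Dlk1, 0.23 for the median of the inflammation genes and 0.25 for that of the macrophage genes. The size of the immune difference, and for some genes its direction, thus depended on these arrays and on the dye term. Ccl8 and Cd74 stayed above 0, but without all 5 arrays B2m came to -0.46, C1qa to -0.87 and Cd68 to -0.28. All named genes that turned are listed in the closing section. Without the arrays of 4 over 2.5 weeks and with that part estimated from the closed BSG loops as 1 dye term shared by both strains, a fit added after these values were seen, 0 were called, Cd74 came to 2.19 and Ccl8 to 3.19, and the median of the 12 inflammation genes to 1.78. Without all 5 arrays and with the same dye term the values were 1.68 for Cd74, 2.61 for Ccl8, -1.89 for Dlk1 and 1.52 for the inflammation genes. Limma adjusted p-values were 0.377 for Cd74 and 0.393 for Ccl8 in the former fit, and 0.999 for both in the latter. All BSG arrays were kept in these fits, also those of loop 1 with duplicate correlations of 0.0242 and -0.0961. The shared term takes the constant part as equal in both strains. For Ccl8 that part was 0.08 and 0.01 in the GSG loops but 0.13 and 0.22 in the BSG loops. For Ccr2 it was -0.07 and -0.08 against 0.19 and 0.09, and for Laptm5 0.33 and 0.27 against -0.11 and 0.29. Values of such genes with the shared term, as 3.19 and 2.61 for Ccl8, rest on that assumption. The macrophage genes had medians of 0.54 and 0.36 in these fits, against 0.66 with all arrays. The antigen presentation genes had 0.10 and -0.05 (0.41 with all arrays) and the lysosomal genes 0.08 and -0.16 (0.15). Genes of actin and membrane repair had 0.06 and -0.02 (0.20), and interferon response genes 0.04 and -0.00 (0.16). Oxidative stress genes had 0.05 and -0.08 (0.24), and genes of alternatively activated macrophages 0.01 and 0.16 (0.38). None of these medians, that of the macrophage genes included, kept its size in both fits. Those of antigen presentation, lysosomal, actin and oxidative stress genes fell below 0 without all 5 arrays. The chemokines and cytokines stayed at 0.10 and 0.07 (0.10), and complement was higher, at 0.25 and 0.31 (0.05). Among other lists, regeneration genes were lower, at -0.37 and -0.42 (-0.12), as were basement membrane genes, at -0.53 and -0.66 (-0.28). The dystrophin-associated complex had -0.62 and -0.63 (-0.24), while fast fibre genes had -0.14 and 0.13 (-0.12).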

How the data were processed

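RNA of the quadriceps was amplified and hybridised by the authors on dual-channel arrays of 65-mer oligonucleotides printed in duplicate. The authors corrected each array for position, dye and differences between arrays (smida, function all.norm) and deposited 1 log ratio per spot, taken here as log2 of Cy5 over Cy3; the base is not given in the sources used here. No values are missing and array medians of GSG lie between -0.06 and 0.02, so no filter or further normalization was applied. The spots hold no counts, so that precision rests on the number of arrays.

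The 2 spots of an oligonucleotide were averaged. GSG arrays were fitted with limma (version 3.58.1; lmFit and eBayes in R version 4.3.3), with 8 ages relative to 1 week, and p-values were adjusted over 8129 oligonucleotides (Benjamini-Hochberg, two-sided, threshold 0.05). The strain difference used the 36 arrays in 1 fit. Errors are standard errors of that fit. P-values measure the residual spread of the log ratios, in which mice and arrays are not separated. The array fit takes the arrays as independent, although each mouse lies on 2 of them. As an alternative, each loop was solved by itself and limma was fitted to 1 value per mouse with age and loop. The fits were tested on simulated data.

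Members and lists were chosen with earlier results of these data known. Named genes were the 15 largest called per direction (none), up to 4 with the smallest p in each of 38 lists, all measured inflammation and GSG genes of the study, the sarcoglycans and, for the strain difference, up to 5 called genes per direction; others are marked as chosen after their values were seen. Of the 142 genes that the smallest p in a list names, the text describes 61, and this choice among them was made with their values known. Where several oligonucleotides carry a symbol, the gene enters by that with the highest average size of log ratio. The gene symbols are those of the platform annotation, and 6722 of 6752 gene IDs matched RefSeq. Alternatives covered leaving out loops and arrays, dye and loop terms, scaling, single spots, weights, filters and other ages. Figures were drawn with matplotlib (version 3.10.9). The gene targeted in the GSG strain is not reported here.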

Additional observations from a re-analysis of the deposited data

How the results depend on the processing

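Of 2191 values of 96 named genes under 23 alternatives, 2123 kept their direction and 68 turned. The count of oligonucleotides called between adult and 2.5 weeks, 0 in the report, was 4 when both strains shared the spread, 3 with 20 weeks among the adults, 2 with a dye term, 1 with the first spots alone, 18 with both spots and an estimated correlation, 5 with array weights (that estimate stopped before convergence), 1 without the oligonucleotides whose spots differed most and 66 without the arrays of low duplicate correlation. It was 0 with 4 to 14 weeks as adult, with 2.5 and 4 weeks as the earlier ages, with a constant for each loop, with median-centred or scaled arrays, with the second spots, for oligonucleotides with 1 symbol and without moderation. Loop numbers only name the loops. With 1 value per animal and the loop as a replicate block 60 were called, with the loop as a random block (correlation 0.115) 3, and without 1 GSG loop 1 to 25. For 20 weeks against adult, 0 called in the report became 4 without the arrays of low duplicate correlation and 1 to 28 without 1 GSG loop. For the strain difference it became 1 with 1 value per animal, and ranged from 0 to 5 without 1 loop.

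Some alternatives were chosen after seeing the data. Without the arrays of 4 over 2.5 weeks 607 were called between adult and 2.5 weeks and 18 between 20 weeks and adult. Without all arrays of low duplicate correlation and with the shared dye term 1 and 3 were called. By construction the constant part of the ratios enters the fits of opened loops that lack a dye term.

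Genes whose adult difference (log2) turned its sign are given with the value it took. Without the arrays of low duplicate correlation these were Anxa4 -0.31, B2m -0.46, C1qa -0.87, C1qc -0.10, Ccl9 -0.13, Ccr2 0.15, Cd68 -0.28, Cd8a 0.13, Clu -0.68, Col3a1 -0.23, Cstb -0.43, Dbp -0.26, Hmox1 -0.34, Il1b 0.72, Lamp1 -0.49, Laptm5 -0.47, Ltf 0.18, Lyz2 -0.12, Mgp -0.58, Mgst1 -0.67, Oas1a -0.34, Postn 1.06, Retnla -0.26, S100a13 -0.44, S100a6 -0.81, Thbs4 -0.28 and Tyrobp -0.30. Without the arrays of 4 over 2.5 weeks they were Anxa4 -0.20, C1qa -0.17, Ccl9 -0.06, Ccr2 0.06, Cd68 -0.14, Cd8a 0.21, Clu -0.43, Col3a1 -0.66, Hmox1 -0.22, Il1b 0.37, Lamp1 -0.18, Laptm5 -0.33, Ltf 0.12, Lyz2 -0.12, Mgp -0.58, Postn 0.93, S100a6 -0.47 and Thbs4 -0.23. With the shared dye term they were Ccr2 0.76, Cd8a 0.14, Ltf 0.31 and Lyz2 -0.30 in the latter case, and Ccr2 0.84, Cd8a 0.06, Laptm5 -0.03, Ltf 0.36 and Lyz2 -0.31 in the former. Loop 1 and loop 2 alone gave opposite signs or a sign other than both together, with -0.63 and 0.00 for Cd8a, 0.15 and -0.37 for Hmgb2, 0.07 and -0.01 for Lyz2, 0.07 and -0.68 for Matn2, 0.31 and -1.11 for Postn, 0.05 and -1.52 for Rpl22, 0.49 and -1.15 for Sgcd and -0.28 and 0.51 for Spi1. First spots gave Il1b 0.18, second spots Hmgb2 0.02 and Lyz2 -0.02, scaled arrays Hmgb2 0.01, and the earlier ages of 2.5 and 4 weeks together Lyz2 -0.01 and Sgca 0.08. Apart from the constant part, the cause of these changes was not tested. With 2 mice per age, 5 weak arrays of 18 and log ratios that give no signal over background, small differences could not be resolved.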
